A study of Mus musculus with 2 samples.

Results

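Binding of the transcription factor Myb was described at 10 nuclear receptor genes that act in myeloid differentiation: Rara, Rxra, Nr4a1, Nr4a2, Nr4a3, Nr3c1, Vdr, Nr1h2, Nr1h3 and Pparg. A peak was counted for a gene when its summit, the base of highest signal, lay in the gene body or within 30 kb of it in the GENCODE vM21 annotation. The rule took 55 of the 25793 Myb peaks in the list, and all 10 genes had at least 1. By the same rule 62.8% of the 21938 protein-coding genes had at least 1 peak, so the presence of a peak in such a window is common. The list came from ChIP-Seq of WT mouse bone marrow cells depleted of lineage-positive cells (Lin–), a fraction with a purity above 80% that is enriched for hematopoietic stem and progenitor cells. Myb was precipitated from a pool of such cells, and rabbit IgG from cells of the same kind served as the background for peak calling. There was 1 library of each, and the number of mice behind it is not given in the sources used here. In the study's methods the mice have a C57BL/6 background, and WT is the name for Ep300 fl/fl mice that lack the Mx1-Cre transgene and were injected with poly(I:C) as young adults, although the methods do not say so for the cells of this library in particular. No difference was tested, and the values below describe this Myb library.

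Nuclear receptors are transcription factors that bind DNA as monomers or dimers, and most of them switch their cofactors when a small lipophilic ligand binds. Rara is the retinoic acid receptor whose fusion with PML blocks granulocyte maturation in acute promyelocytic leukemia, and Rxra is the shared dimer partner of Rara, Vdr, Pparg and the liver X receptors Nr1h2 and Nr1h3. The Nr4a factors are orphan receptors induced early after stimulation, and Nr3c1 is the glucocorticoid receptor. Myb keeps blood progenitors proliferating and binds DNA at a short element with the core AAC.

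No sequencing depth accompanies the peak list. The number of Myb reads behind each summit was therefore worked out from 2 values that the authors computed with MACS2 for each peak, the fold enrichment and the p-value. The same step gave the background at each summit in scaled units, where 1 Myb read counts as 0.769. Background values below are in these units. Some fall on whole numbers, and how many IgG reads lie behind each was not worked out. The background values have no interval here. Fold enrichment was the scaled Myb value plus 1, divided by the background plus 1. The lowest background, 1.46, was shared by 12.4% of all peaks. The 55 peaks rested on 9 to 81 reads at the summit with a median of 18, and the median over all peaks was also 18. Exact Poisson 95% intervals on these numbers cover counting error only, since amplified reads are not independent molecules. A peak of 18 reads, such as the one over the Cdc6 start site upstream of Rara, had an interval of 10.7 to 28.4 reads. Differences in height between single peaks of this size are therefore mostly not resolved.

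The sequences that carry the Myb element are shown first. Within 50 bp of the summit, 5 of the 55 peaks held CAACGG or CAACTG or TAACGG or TAACTG on either strand, which is 9.09% with an exact binomial 95% interval of 3.02 to 20%. The same letters were found in 16.7% of all peaks, a value inside that interval. Of the 5 peaks, 3 lay in the Rara window, 1 in the Nr3c1 gene and 1 downstream of Vdr at the start of Hdac7. The 3 windows of 101 bases at Rara and the one near Vdr are given below on the plus strand of mm10, centered on the summit, with the Myb element in capitals. The first is chr11:98911726-98911826, the second chr11:98918295-98918395, the third chr11:98936768-98936868 and the fourth chr15:97844677-97844777.
Rara, 16042 bp upstream: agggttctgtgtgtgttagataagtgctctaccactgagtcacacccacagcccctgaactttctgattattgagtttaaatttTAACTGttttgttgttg
Rara, 9473 bp upstream: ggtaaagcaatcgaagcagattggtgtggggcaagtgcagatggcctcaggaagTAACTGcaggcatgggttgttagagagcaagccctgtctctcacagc
Rara, intron 1: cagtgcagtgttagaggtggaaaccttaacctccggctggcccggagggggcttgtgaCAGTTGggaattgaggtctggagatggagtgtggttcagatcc
Vdr, 9698 bp downstream: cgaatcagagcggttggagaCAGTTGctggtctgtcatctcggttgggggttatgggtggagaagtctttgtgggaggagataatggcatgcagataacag
The element was TAACTG on the strand shown in the first 2 windows, and in the others it was CAACTG on the opposite strand, which reads CAGTTG here.

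The highest peaks of the set had no Myb element within 50 bp of the summit. They were a peak 29188 bp beyond the 3′ end of Pparg and a peak 1613 bp upstream of Nr4a3. The Pparg peak held 5 Myb elements over its whole length, the nearest centered 78.5 bp from the summit, and 201 bases at chr6:115519487-115519687 are given to include it. The Nr4a3 peak held 3, the nearest 408.5 bp from the summit, so the 101 bases at chr4:48043490-48043590 have no capitals. For the only Rxra peak, chr2:27703619-27703719, capitals mark a receptor half-site and an ETS element. In a peak 4831 bp downstream of Vdr, chr15:97849544-97849644, they mark the cyclic AMP element TGACGTCA. All are on the plus strand of mm10, and none of the windows overlaps an annotated exon.
Pparg, 29188 bp downstream: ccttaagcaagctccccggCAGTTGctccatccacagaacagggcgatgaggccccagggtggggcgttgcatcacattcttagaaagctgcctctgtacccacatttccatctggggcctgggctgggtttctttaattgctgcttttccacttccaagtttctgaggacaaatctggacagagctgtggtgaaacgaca
Nr4a3, 1613 bp upstream: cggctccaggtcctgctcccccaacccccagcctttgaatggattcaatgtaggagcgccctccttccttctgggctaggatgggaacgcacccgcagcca
Rxra, intron 1: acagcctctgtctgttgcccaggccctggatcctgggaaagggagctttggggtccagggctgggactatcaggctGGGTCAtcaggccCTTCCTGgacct
Vdr, 4831 bp downstream: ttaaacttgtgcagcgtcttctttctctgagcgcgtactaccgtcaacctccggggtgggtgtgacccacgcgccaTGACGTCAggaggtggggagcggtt

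Peaks were unevenly spread over the 10 genes. Rara had 14 peaks, Nr3c1 had 10, Nr4a2 had 7, Vdr and Pparg had 5 each, Nr4a1, Nr4a3 and Nr1h2 had 4 each, and Rxra and Nr1h3 had 1 each. The median was 4.5 peaks per gene against 1 over all protein-coding genes, with windows of a median 104 kb against 77.4 kb. Per length, the windows of the 10 genes held 48.7 peaks per Mb. The merged windows of all protein-coding genes held 15.5 peaks per Mb, and the whole set of chromosomes 9.46. The 10 genes were chosen with earlier results of these data known, so these densities describe them and are no test. Rara had 13.1 peaks per 100 kb, and the median over all protein-coding genes was 1.38. Rxra (0.683) and Nr1h3 (1.27) lay below that median, and the others of the 10 above it. Fewer peaks than at Rara were found at 99.0% of protein-coding genes, and fewer than at Nr3c1 at 96.5%. Counted per length of window, these shares were 97.8% for Rara and 85.2% for Nr3c1. Of the 14 Rara peaks, 8 were nearest to another gene.

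**Figure D1:**
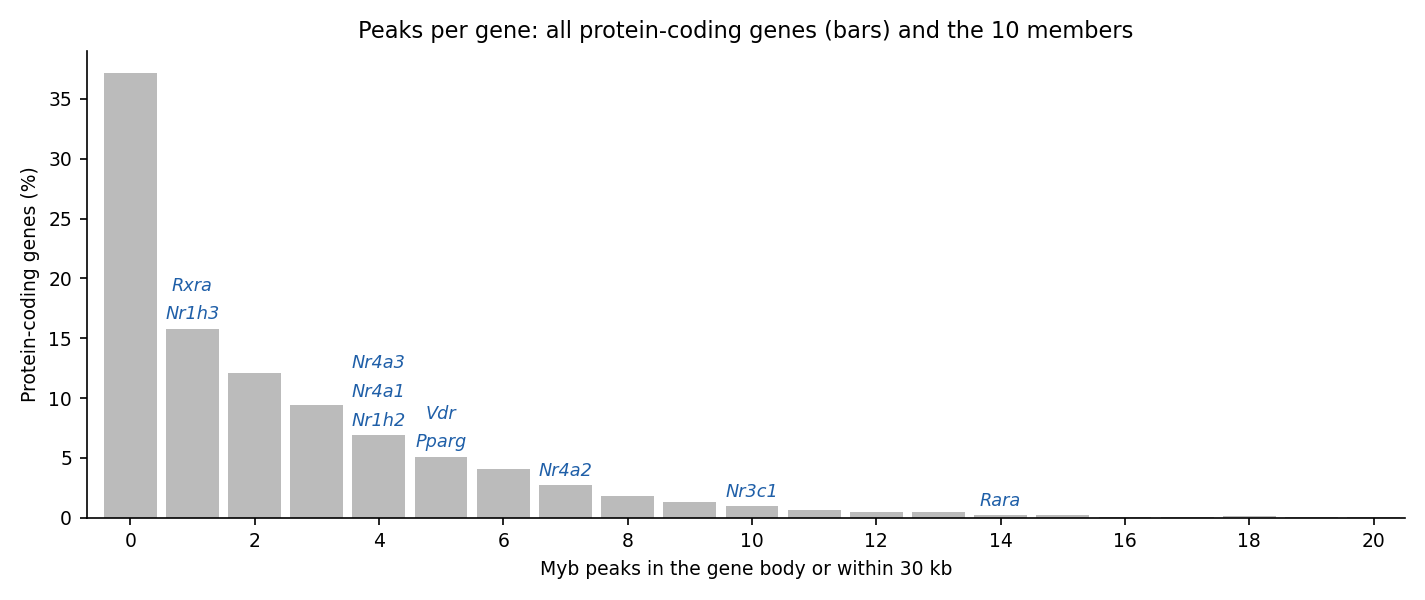
Number of Myb peaks in the gene body or within 30 kb (x axis, shown up to 20) against the share of protein-coding genes with that number in percent (grey bars), with the 10 nuclear receptor genes written at their own number. Rara stands at 14 peaks and Nr3c1 at 10, while Rxra and Nr1h3 stand at 1.

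A peak in the window was often closer to a neighbor. The nearest protein-coding start site belonged to the nuclear receptor gene for 32 of the 55 peaks and to another gene for 23. Only 27 summits lay inside a gene body of the 10, and none of them in Nr4a1, Vdr or Nr1h3. A summit within 3 kb of an annotated start site of the gene itself, here called an own promoter peak, was present at 6 of the 10 genes, namely Rara, Nr4a2, Nr4a3, Nr3c1, Nr1h2 and Pparg, and at 39.9% of all protein-coding genes. Rxra, Nr4a1, Vdr and Nr1h3 had none. Counting the start sites of any gene, 32 of the 55 summits (58.2%) lay within 3 kb of one, beside 57.6% of all peaks. The rest were 15 intronic and 8 intergenic summits, with none in an exon.

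**Figure D2:**
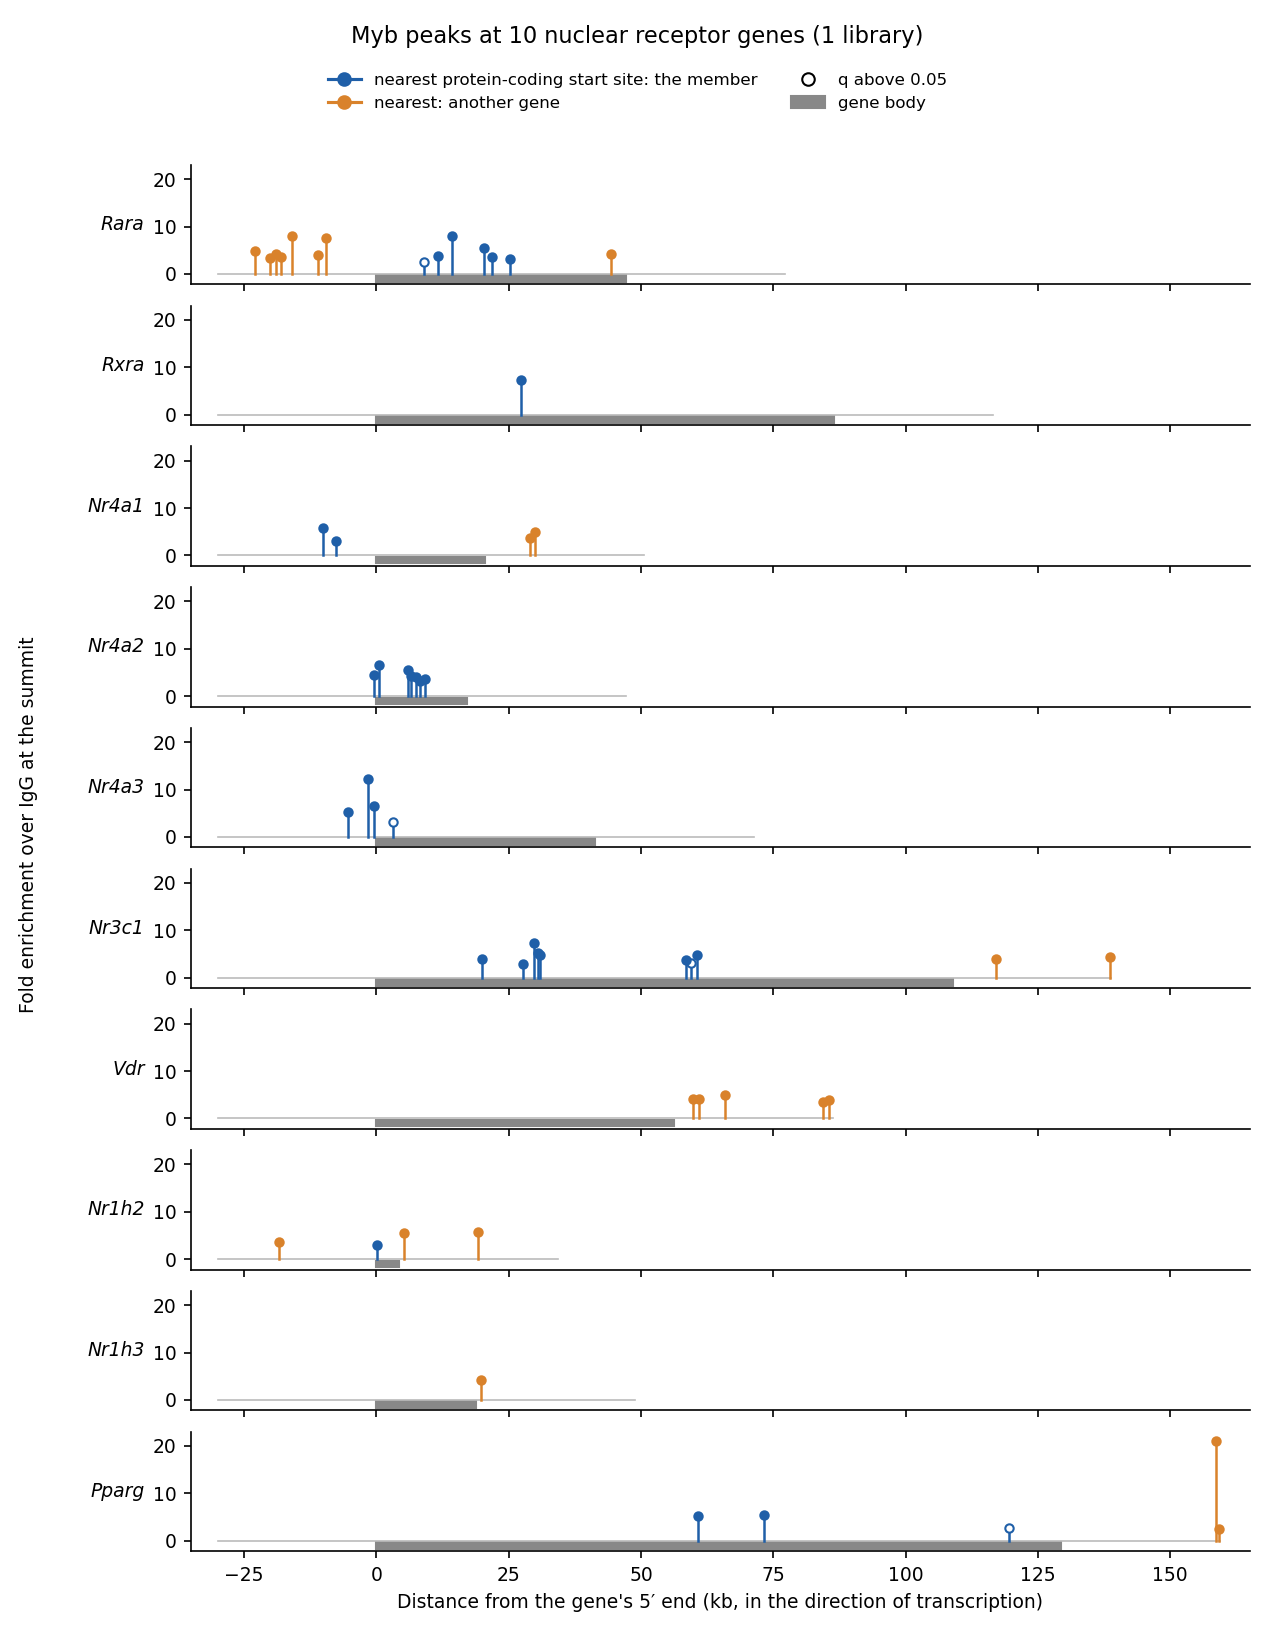
Myb peaks along each of the 10 genes, drawn as distance of the summit from the 5′ end of the gene in kb (x axis) against fold enrichment over IgG (y axis), with the gene body as a grey bar and the window as a thin line. Blue peaks have the gene itself as the nearest protein-coding start site, orange peaks another gene, and open circles have a q-value above 0.05. The peak 29188 bp beyond Pparg reaches 21.1-fold, and at Vdr all 5 peaks are orange and downstream.

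Peak heights covered a range from 2.45-fold to 21.1-fold over IgG, with a median of 4.19 and an interval of the median from 3.84 to 4.87 by order statistics. The median over all peaks was 4.51. At least 10-fold enrichment was found in 2 of the 55 peaks, and in 4.47% of all peaks. A q-value above 0.05 was recorded for 4 of the 55 peaks, 1 each at Rara, Nr4a3, Nr3c1 and Pparg, beside 7.24% of all peaks. Widths ran from 195 to 1888 bp with a median of 513 bp, and the median of all peaks was 577 bp.

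**Figure D3:**
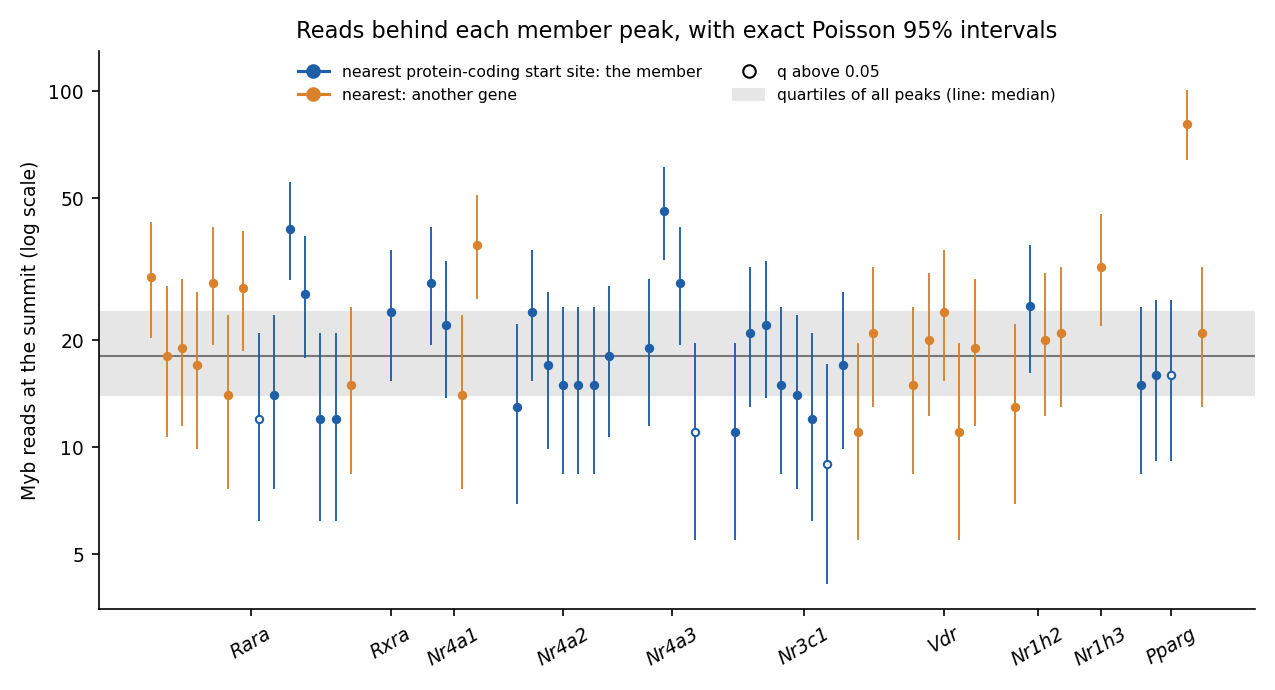
Myb reads at the summit (y axis, log scale) for each of the 55 peaks, ordered within a gene from upstream to downstream, with exact Poisson 95% intervals as bars, on the grey band of the quartiles of all peaks. Most intervals overlap the band, and 4 lie above it, those of the 81-read peak near Pparg, the 46-read peak upstream of Nr4a3, the 41-read peak in Rara and the 37-read peak at Atg101.

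The retinoid receptors stood at both ends of the set by number of peaks. Rara, ENSMUSG00000037992.16 at chr11:98927818-98974942 on the plus strand, had 7 peaks upstream and 7 inside. All 7 upstream summits were nearer to start sites of Cdc6, a replication licensing factor, than to one of Rara. The highest of these, at chr11:98911163-98912186 in an annotated intron, had 8.01-fold enrichment and 29 reads (19.4 to 41.6), 3625 bp from a Cdc6 start site. The third highest of the window, at chr11:98917450-98918887, had 7.64-fold enrichment and 28 reads (18.6 to 40.5), 2121 bp from a Cdc6 start site. Both held the Myb element printed above.

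Inside Rara, the highest peak lay in intron 1 at chr11:98941610-98942843. It had 7.90-fold enrichment and 41 reads (29.4 to 55.6), and its summit was 2457 bp from the start of a processed transcript of Rara. The other 2 own promoter peaks were lower. The one at chr11:98939334-98939754 had 3.70-fold enrichment and 14 reads (7.65 to 23.5), 219 bp from a protein-coding start site. The one at chr11:98936642-98937183 had 2.56-fold enrichment and 12 reads (6.20 to 21), 880 bp from another, and a q-value above 0.05. That lowest peak of the Rara window carried a Myb element centered 10.5 bp from its summit. The remaining 9 peaks had 3.06-fold to 5.55-fold enrichment and 12 to 30 reads, and 1 of them, in intron 7 of Rara, was nearer to the connexin gene Gjd3. Repeat sequence covered most of the 101 bases at 2 of the 55 summits, both upstream of Rara, beside 6.12% of all summits.

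Rxra, ENSMUSG00000015846.14 at chr2:27676440-27762957 on the plus strand, had 1 peak in a window of 147 kb. It lay in intron 1 at chr2:27703154-27703857, with 7.33-fold enrichment and 24 reads (15.4 to 35.7). Its summit was 5623 bp from the start of a shorter protein-coding transcript and 26468 bp from the first RefSeq start site of the gene. Rxra thus had the lowest number of peaks in the set together with Nr1h3, and its peak was the one of the retinoid receptors with both a receptor half-site and an ETS element near the summit.

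The 3 Nr4a genes, immediate early genes of related sequence, carried 15 of the 55 peaks and differed in where these lay. At Nr4a2 the summits were within 3 kb of an own start site in 7 of 7 peaks, at Nr4a3 in 3 of 4 and at Nr4a1 in 0 of 4. No Nr4a summit had a Myb element within 50 bp.

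Nr4a2, ENSMUSG00000026826.13 at chr2:57106830-57124003 on the minus strand, had 2 clusters of peaks around different start sites. The cluster at the 5′ end held the highest peak, at chr2:57122642-57123914, with 6.49-fold enrichment and 24 reads (15.4 to 35.7), 444 bp inside the gene. The other peak there, at chr2:57124163-57124620 and 392 bp upstream, had 4.47-fold enrichment and 13 reads (6.92 to 22.2). The second cluster of 5 peaks lay around an inner protein-coding start site, with 1 summit past that site and 4 before it in the direction of transcription. Just past it, at 148 bp, chr2:57114447-57115514 had 3.71-fold enrichment and 18 reads (10.7 to 28.4). On the other side, chr2:57115668-57116180 had 3.14-fold enrichment and 15 reads at 752 bp from it. The peaks at chr2:57116374-57116631 and chr2:57117140-57117600, 1501 and 2408 bp away, had 3.99-fold and 4.25-fold enrichment, again with 15 reads each (8.40 to 24.7 for all 3). Fold enrichment was highest in the peak farthest from that start site, at chr2:57117825-57118122 and 2915 bp, with 5.54-fold enrichment and 17 reads (9.90 to 27.2). Read numbers hardly differed over the cluster, while the background fell from 3 scaled units at the first pair of peaks to 1.54 at the last. The read intervals of all 7 Nr4a2 peaks overlapped.

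Nr4a3, ENSMUSG00000028341.9 at chr4:48045153-48086447 on the plus strand, had the second highest peak of the set. At chr4:48042183-48044070 it had 12.2-fold enrichment and 46 reads (33.7 to 61.4), and a lower highest peak was found at 92.6% of the protein-coding genes with a peak. Closer to the start, at chr4:48044226-48045279 and 508 bp from it, a peak had 6.60-fold enrichment and 29 reads (19.4 to 41.6). A peak 5394 bp upstream at chr4:48039649-48039956 had 5.21-fold enrichment and 19 reads (11.4 to 29.7). The only peak inside the gene, at chr4:48048141-48048565 and 885 bp from a start site inside the gene, had 3.15-fold enrichment, 11 reads (5.49 to 19.7) and a q-value above 0.05. The peaks of Nr4a3 were thus upstream of the gene and at its 5′ end, with none over the rest of the gene body.

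Nr4a1, ENSMUSG00000023034.7 at chr15:101254269-101274795 on the plus strand, had no peak inside the gene. Its highest peak, at chr15:101243991-101244361, had 5.83-fold enrichment and 29 reads (19.4 to 41.6) and lay 10078 bp upstream of the outermost start site. A lower one 7720 bp upstream, at chr15:101246438-101246779, had 2.99-fold enrichment and 22 reads (13.8 to 33.3). Both downstream peaks were at the start of Atg101, an autophagy gene. The nearer to it, at chr15:101283755-101284463 and 114 bp away, had 4.91-fold enrichment and 37 reads (26.1 to 51.0). The other, at chr15:101283111-101283618 and 926 bp away, had 3.74-fold enrichment and 14 reads (7.65 to 23.5). No summit of the window was closer than 16500 bp to the start site that RefSeq gives for Nr4a1.

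The promoters of the Nr4a genes share a short element, with a Myb peak at only some of them. In the 250 bases upstream of the RefSeq start site (RefSeq, GRCm38.p6), each of Nr4a1, Nr4a2 and Nr4a3 held 4 matches to TGACG on either strand, the cyclic AMP half-site. At least 1 match was present in 17.8% of 32851 RefSeq promoters and at least 4 in 0.137%, a minimum set after the 3 genes had been seen. The full element TGACGTCA, which holds TGACG on both strands, was in none of the 3 and in 1.55% of all promoters. A Myb peak overlapped this window at Nr4a2 and Nr4a3 and not at Nr4a1. The summits of these overlapping peaks lay outside the window, 392 bp from the RefSeq start site at Nr4a2 and 660 bp at Nr4a3. The upstream bases of Nr4a1 (chr15:101266596-101266845, plus strand), without an overlapping peak, and Nr4a2 (chr2:57124004-57124253, minus strand), with one, are given with TGACG or its reverse complement CGTCA in capitals. Those of Nr4a3 overlap an exon of the annotation and are not printed.
Nr4a1 promoter: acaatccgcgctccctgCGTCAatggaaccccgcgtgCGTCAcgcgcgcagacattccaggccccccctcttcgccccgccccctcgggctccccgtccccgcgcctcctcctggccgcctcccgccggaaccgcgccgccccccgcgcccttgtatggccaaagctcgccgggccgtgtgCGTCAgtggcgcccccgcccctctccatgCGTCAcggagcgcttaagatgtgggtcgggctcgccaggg
Nr4a2 promoter: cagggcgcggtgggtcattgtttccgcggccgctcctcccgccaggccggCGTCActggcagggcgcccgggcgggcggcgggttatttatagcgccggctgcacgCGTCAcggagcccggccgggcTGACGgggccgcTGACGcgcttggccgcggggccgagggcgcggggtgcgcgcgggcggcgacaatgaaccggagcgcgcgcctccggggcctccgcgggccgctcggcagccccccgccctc

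The steroid hormone receptor of the set, Nr3c1 (ENSMUSG00000024431.15, chr18:39410545-39519421, minus strand), had 10 peaks, 8 of them inside the gene. Of these, 4 were own promoter peaks, clustered at the inner start sites. The highest, at chr18:39489410-39490464, had 7.28-fold enrichment and 22 reads (13.8 to 33.3), 197 bp from a protein-coding start site. Beside it, chr18:39488841-39489168 had 5.09-fold enrichment and 15 reads (8.40 to 24.7), 308 bp from the start of a further protein-coding transcript. At chr18:39488362-39488638, 729 bp from the same start site, 4.78-fold enrichment rested on 14 reads (7.65 to 23.5). The last, at chr18:39490879-39492153 and 441 bp from the start of another protein-coding transcript, had 2.86-fold enrichment with 21 reads (13 to 32.1). The read numbers of the 4 were thus close, and their intervals overlapped. The lower fold of the last went with a background of 5 scaled units. At the other 3 it was 1.46, the lowest value in the list.

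A second group of 3 Nr3c1 peaks lay in intron 2, 26352 to 28449 bp from the nearest own start site, with 3.0-fold to 4.69-fold enrichment and 9 to 17 reads. The highest of them, at chr18:39458621-39459291, held the Myb element 34.5 bp from its summit, and the lowest had a q-value above 0.05. Another peak inside the gene had 3.84-fold enrichment and 11 reads, 8260 bp from an own start site. The 2 peaks downstream were nearest to start sites of Arhgap26, at 18255 and 39665 bp, with 4.29-fold and 3.84-fold enrichment.

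For Vdr, the vitamin D receptor (ENSMUSG00000022479.15, chr15:97854425-97910630, minus strand), every peak of the window lay downstream and was nearest to Hdac7, a class II histone deacetylase gene. The nearest summit was 57543 bp from the RefSeq start site of Vdr. The highest peak, at chr15:97844533-97844984, had 4.87-fold enrichment and 24 reads (15.4 to 35.7), 225 bp from a Hdac7 start site, and carried the Myb element printed above. The next, at chr15:97850413-97850904, had 4.18-fold enrichment and 15 reads (8.40 to 24.7). A cyclic AMP element marked the peak at chr15:97849076-97850230, which had 4.10-fold enrichment and 20 reads (12.2 to 30.9), 5092 bp from a Hdac7 start site. This was 1 of 55 peaks with that element within 50 bp of the summit, beside 0.244% of all peaks. The other 2 peaks, 28227 and 29335 bp beyond the gene, had 3.54-fold and 3.90-fold enrichment with 11 and 19 reads.

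The liver X receptors sense oxysterols and are expressed in macrophages. Nr1h2 (ENSMUSG00000060601.13, chr7:44549616-44553951, minus strand) is a short gene among close neighbors, and 3 of its 4 peaks were nearest to another start site. The own start site was covered by chr7:44553350-44554297, with 2.89-fold enrichment and 25 reads (16.2 to 36.9), its summit in exon 1 and 14 bp from a protein-coding start site of Nr1h2. This was the lowest fold of the 4 and the highest read number, over a background of 6 scaled units against 2 at the other 3. Toward Pold1, a DNA polymerase subunit gene, chr7:44534306-44534834 had 5.72-fold enrichment and 21 reads (13 to 32.1), 426 bp from a Pold1 start site. The peak at chr7:44547836-44549064 had 5.46-fold enrichment and 20 reads (12.2 to 30.9). Its summit was 14 bp from a Pold1 start site and also 2904 bp from that of a retained intron transcript of Nr1h2. The fourth, at chr7:44572033-44572432, had 3.67-fold enrichment and 13 reads (6.92 to 22.2), 56 bp from a start site of Napsa, an aspartic protease gene.

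Nr1h3 (ENSMUSG00000002108.10, chr2:91184061-91202834, minus strand) had a single peak, and it was at the start of a neighbor. At chr2:91182967-91183570, 906 bp beyond the 3′ end of Nr1h3, it had 4.27-fold enrichment and 32 reads (21.9 to 45.2). The summit was 108 bp from a start site of Madd, a Rab exchange factor gene, and 11880 bp or more from the RefSeq start sites of Nr1h3.

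Pparg (ENSMUSG00000000440.12, chr6:115360951-115490399, plus strand), the receptor that drives fat cell and alveolar macrophage differentiation, had 3 peaks inside the gene and 2 beyond it. The highest peak of the whole set, at chr6:115518589-115520042, had 21.1-fold enrichment and 81 reads (64.3 to 101) over a background of 2 scaled units. A lower highest peak was found at 99.5% of the protein-coding genes with a peak. It was intergenic. A second peak adjoined it at chr6:115520118-115520609, with 2.45-fold enrichment and 21 reads (13 to 32.1) over a background of 6 scaled units. Within the gene, chr6:115434036-115434410 in intron 1 had 5.40-fold enrichment and 16 reads (9.15 to 26.0). The own promoter peak, at chr6:115421546-115422065, had 5.09-fold enrichment and 15 reads (8.40 to 24.7). It was 342 bp from an inner protein-coding start site, and no summit was closer than 59375 bp to the 2 outer RefSeq start sites. The peak in intron 6 had 2.66-fold enrichment, 16 reads and a q-value above 0.05.

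Both peaks beyond Pparg sat near the 30 kb limit of the rule, at 29188 and 29755 bp from the gene. With them, the peaks just inside the limit were those downstream of Nr3c1 at 29707 bp (4.29-fold) and of Vdr at 29335 bp (3.90-fold). Just outside it were peaks of 3.30-fold and 3.76-fold at 30598 and 33271 bp from Vdr and one of 4.10-fold at 34487 bp from Nr1h3, the first pair nearest to Hdac7 and the last to Ddb2.

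Elements of other factors were counted in the same 101 bases around the summits, on both strands. The receptor half-site, AGGTCA or GGGTCA, was present in 8 of the 55 peaks (14.5%, interval 6.50 to 26.7%) and in 9.25% of all peaks. These 8 peaks were at Rara, Rxra, Nr4a3, Nr3c1, Vdr, Nr1h2 and Pparg. Of the longer receptor sites, the Nr4a monomer site AAAGGTCA, which holds the half-site, was in 0 of 55 peaks and 0.364% of all. Half-sites repeated in the same direction with 1 to 5 bases between them were in 0 of 55 and 0.0775%. The glucocorticoid half-site AGAACA was in 3 peaks (5.45%, interval 1.14 to 15.1%) and in 7.45% of all, with 2 at Rara and 1 at Nr4a3 and none at Nr3c1 itself. Its palindrome with 3 bases in the middle was in none of the peaks of the list. TGACG, the cyclic AMP half-site, was in 7 peaks (12.7%, interval 5.27 to 24.5%) and 6.13% of all.

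Elements of blood cell factors were as follows. RUNX elements, TGCGGT or TGTGGT, were in 8 peaks (14.5%) and 12.2% of all. GATA elements, AGATAA or TGATAA, were in 7 peaks (12.7%) and 13.8% of all, and ETS elements, CAGGAAG or CCGGAAG, in 6 peaks (10.9%) and 7.68% of all. The AP-1 element TGANTCA was in 3 peaks (5.45%) and 2.87% of all, and the C/EBP element TTGCNNAA in 1 peak (1.82%, interval 0.0460 to 9.72%), at Rara, and 6.16% of all. For each of these elements, the share over all peaks lay inside the exact binomial interval of the 55, so no share was resolved from the background. Over whole peaks the Myb element was found in 25 of the 55 (45.5%) and in 58.6% of all peaks. The Rara window, with 14 of the 55 peaks, held 10 of these 25, including every peak nearest to Cdc6. Rxra and Nr1h3, with 1 peak each, held none. The whole-peak shares have no interval here, and their difference was not tested. A longer peak has more room for a match, and median widths were 513 bp for the 55 peaks and 577 bp for all peaks.

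**Figure D4:**
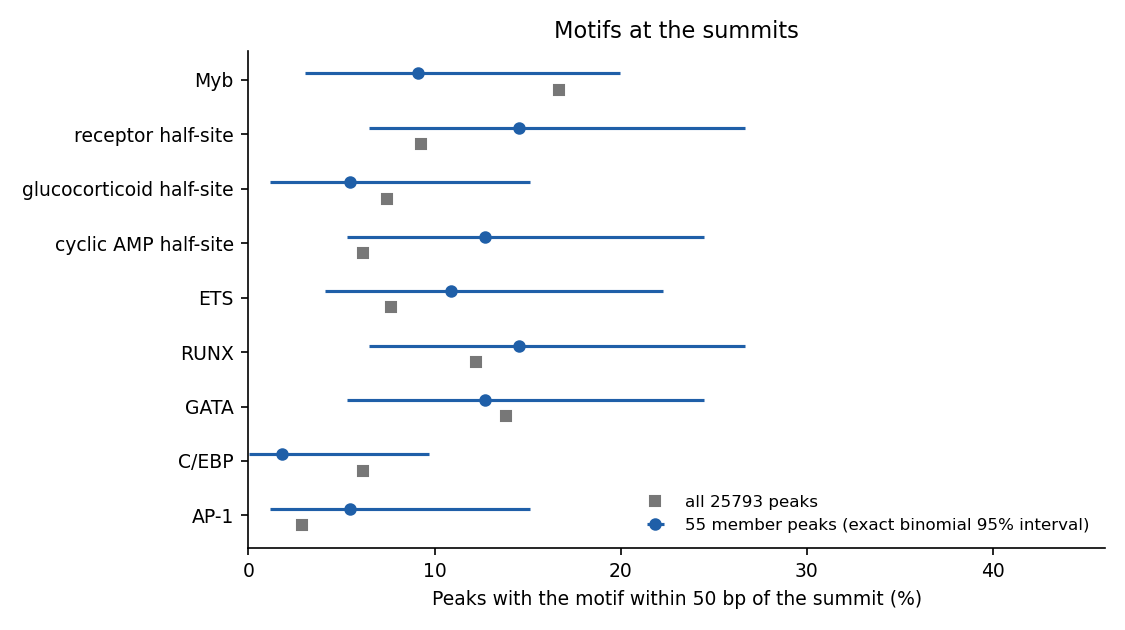
Share of peaks with each element within 50 bp of the summit in percent (x axis) for the 55 peaks at nuclear receptor genes (blue, exact binomial 95% intervals) and for all peaks of the list (grey squares). Each grey square lies inside the interval of its element, including the Myb element at 9.09% and 16.7%.

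The CpG content around the summits varied between the genes, with no test of the difference. The ratio of observed to expected CpG in 301 bases had a median of 0.299 over the 55 peaks and 0.326 over all peaks. Over the 15 Nr4a peaks the median was 0.676, with a range of 0.131 to 0.970, and over the 15 peaks at Rara and Rxra it was 0.239, with a range of 0 to 1.16. Summits within 3 kb of a start site of any gene made up 12 of the 15 Nr4a peaks and 9 of the 15 at Rara and Rxra. The highest value of the retinoid receptor windows belonged to the peak 171 bp from a Cdc6 start site. Within 3 kb of a start site the median was 0.512 in the 55 peaks and 0.503 in all peaks. Elsewhere it was 0.174 and 0.229.

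**Figure D5:**
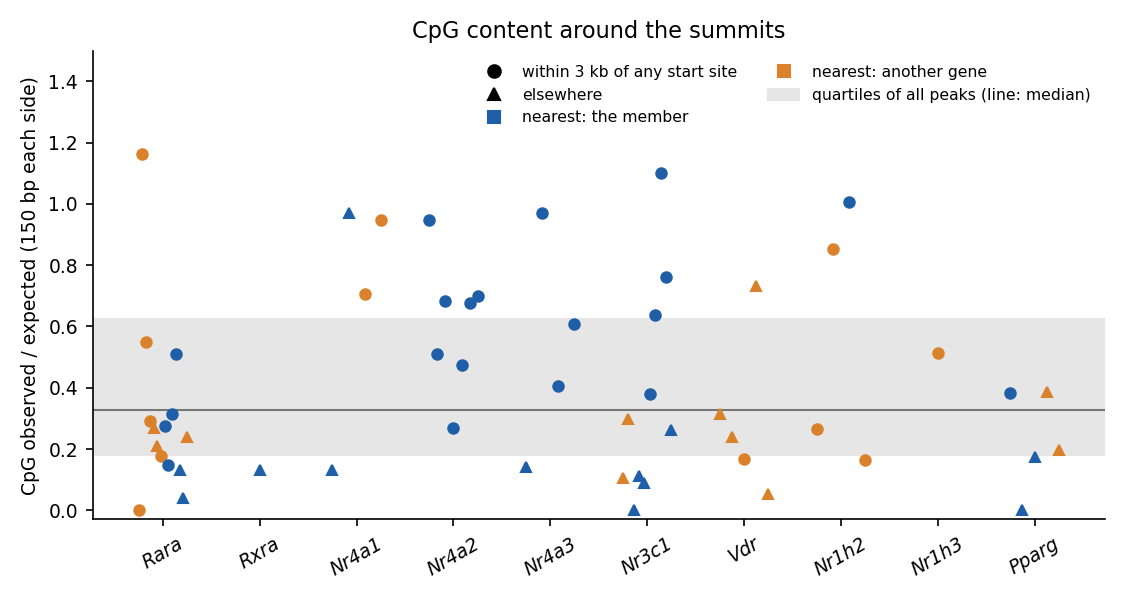
Ratio of observed to expected CpG in the 301 bases around each summit (y axis) by gene, with circles for summits within 3 kb of any start site and triangles for the others, over the quartiles of all peaks in grey. The 7 Nr4a2 peaks run from 0.267 to 0.949, and the Rxra peak is at 0.133.

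Other genes of the receptor pathways were counted by the same rule from lists chosen with earlier results of these data known. Of the other 39 nuclear receptor genes, 20 (51.3%) had at least 1 peak and 12 (30.8%) an own promoter peak, where the shares over all protein-coding genes were 62.8% and 39.9%. The highest peaks were at Ppard, a fatty acid receptor (10.3-fold, 52 reads, nearest to Def6), Nr2c2, an orphan receptor (10.3-fold, 38 reads, 64 bp from its own start site), Esrra, an estrogen-related receptor (10.05-fold, 64 reads, nearest to Prdx5), and Nr0b2, a receptor without a DNA binding domain (8.39-fold, 33 reads, nearest to Gpatch3). The 19 genes without a peak included Rarb, Rxrg, Esr2, Nr3c2 and Pgr. At 3 of the 4 high peaks, the start site of a neighbor was closer than that of the receptor gene.

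The 10 coregulator genes were also chosen with earlier results known. Their windows ran from 62.7 kb at Gps2 to 295 kb at Ncoa2, against a median of 77.4 kb over all protein-coding genes. All 10 had a peak and 8 an own promoter peak, beside 62.8% and 39.9% of all protein-coding genes. The highest were near the corepressor deacetylase Hdac3 (16.3-fold, 51 reads, nearest to Diaph1), the coactivators Ncoa1 (11.7-fold, 36 reads, 24867 bp from its own start site) and Med1 (9.21-fold, 34 reads, nearest to Cdk12), and Tbl1xr1, a subunit of the corepressor complex (9.10-fold, 46 reads, 14 bp from its own start site). Of 24 genes that handle ligands or are known receptor targets, 21 had a peak and 15 an own promoter peak, beside the same shares. The highest were at Cebpe, a granulocyte factor induced by retinoic acid (17.4-fold, 89 reads, 6137 bp from its own start site), the glucocorticoid targets Per1 (16.7-fold, 59 reads, nearest to Tmem107) and Dusp1 (13.9-fold, 66 reads, 160 bp from its own start site), and the lipid droplet gene Plin2 (11.8-fold, 38 reads, 1677 bp from its own start site). The 3 without a peak were Crabp1, Stra6 and Fabp4. The peak list holds no expression values, so the identity of the Lin– cells could not be checked against marker genes, and a peak says nothing of the level of a gene.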

How the data were processed

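ChIP-Seq was performed with 1 Myb library and 1 IgG library from WT Lin– bone marrow cells. Per the submitters' processing notes and the study's methods, the authors used Cutadapt 1.15 for trimming, BWA 0.7.13 for alignment to mm10, Picard for duplicates, filters on mapping quality and blacklisted regions, and MACS2 2.1.1.20160309 for narrow peaks against IgG. Calls from pseudo-replicates, random parts of 1 library, were overlapped. In the deposited list, fold enrichment is a ratio of the scaled Myb pileup to the IgG background, each with 1 added. The authors gave p-values and q-values on a −log10 scale. The deposited score and the summit offset were taken as the authors gave them, and the score was not used further. The methods state a q-value below 0.05, while 1867 deposited rows were above it and were kept.

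Summits were assigned to GENCODE vM21 genes with Python 3.11.15, pandas 2.3.3 and pysam 0.24.0, and coordinates are 1-based. Transcripts of every type gave start sites. Reads at a summit were recovered from fold enrichment and p-value with 1 pileup scale of 0.769, which gave whole reads in 100% of rows within 0.001 of the −log10 p-value. The recovery, the motif search and the nearest start site were checked on simulated data. Intervals are exact Poisson or exact binomial at 95% (scipy 1.17.1). All motifs were searched on both strands of GRCm38.p6. Of the 10 genes, 9 matched an entry of the RefSeq promoter table, with 16 promoters.

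The members and gene lists were chosen with earlier results of these data known. All 10 genes were named, with each own promoter peak and the 3 highest peaks in full and the others as ranges, and 4 genes of each further list by the height of their highest peak. Alternatives covered the flank, the q-value, promoter windows, start sites and motif forms.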

Additional observations from a re-analysis of the deposited data

How the results depend on the processing

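Of 68 recomputed values, 55 stayed within 1.5 times the reported count or inside the interval of the reported share or median, and 13 moved. Among those that stayed is a background share and no alternative setting. In windows centered 500 bp up and down from the summits, the Myb element was in 5.45%, beside 10.5% over all peaks. That share lay inside the interval of the share at the summits. For the peaks at the 10 genes, the summits were thus not resolved from their flanks. The number of peaks at the 10 genes was 32 with a flank of 3 kb, 27 in the gene body alone and 20 at a −log10 q-value of at least 5, where 11 were nearest to one of the 10 genes and the median fold enrichment was 5.77. In the gene body alone, 35.4% of protein-coding genes had a peak and 7 of the 10 genes did. At the stricter q-value, 24.3% of protein-coding genes and 5 of the 10 genes had an own promoter peak. The share of peaks at promoters was 41.8% within 1 kb and 29.1% within 500 bp, beside 41.6% and 31.9% of all peaks. Counted as reads in place of fold enrichment, the median was 18 for the 55 peaks and for all peaks. The share with the Myb element was 20.0% within 100 bp, 50.9% for AACNG and 25.5% for AACNG after C or T, against 30.0%, 54.3% and 29.7% of all peaks. These changes follow from how each alternative was built. With 1 library and no replicate, no result could be compared between mice, and peaks of 9 to 20 reads leave wide intervals on height. No paired analysis was possible because each precipitate had 1 library and no result came from a test.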
